A study of Mus musculus with 6 samples.

Results

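Amino acid and integrated stress response genes are described here in whole-lung RNA of mice carrying K7M2 cells, an osteosarcoma line that spreads to the lung. The members are 10 genes chosen by name, the transcription factors Atf4, Atf5 and Ddit3 and the ATF4 target genes Trib3, Asns, Chac1, Sesn2, Psat1, Phgdh and Ddit4, out of 29753 gene rows with counts. The rule used no expression value, although the members and the lists below were chosen with earlier results of these data known. All 10 members passed the filter on low counts that left 17686 genes for testing. The groups were lungs of balb/c mice taken on day 14 (D14) or on day 0 (D0) after orthotopic implantation of K7M2 cells. Each day had 3 libraries, labelled as biological replicates from independent experiments. Age, sex and any allele beyond the strain are not in the labels, nor is the number of mice behind a library, and the p-values reflect library-to-library spread. No D14 lungs without implanted cells were analysed here, so time, procedure and tumour cannot be told apart in any difference below.

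When amino acids run short, misfolded proteins load the endoplasmic reticulum (ER), haem is lacking or double-stranded RNA appears, a set of kinases phosphorylates the initiation factor eIF2 alpha. General translation then slows, while mRNAs with upstream open reading frames, Atf4, Atf5 and Ddit3 among them, are translated more. ATF4 protein, paired with a C/EBP or another bZIP partner, switches on genes for amino acid synthesis and uptake, tRNA charging and feedback. Because much of this control acts on translation, an mRNA level does not report how much of these factors is made.

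The composite element through which ATF4 and C/EBP factors bind (C/EBP-ATF response element, CARE) was searched as TGATGNAA on both strands in RefSeq promoter windows of GRCm38.p6, which run from 250 bases before to 50 bases after a gene's start. All 10 members had a window, Atf5 and Psat1 2 each. Windows of Asns, Chac1 and Trib3 held 1 match each, and 3.97% of 32851 windows in the table held one. The element of ER stress, CCAAT and CCACG spaced by 9 bases, was in no member's window and in 0.119% of all windows. The cyclic AMP element TGACGTCA was in no member's window either and in 1.79% of all. The 3 stretches with a match are shown because they carry the letters of the element, 5′ to 3′ on the strand of the gene, with the match in capitals. They lie at chr6:7693214-7693243 (Asns, minus strand), chr2:119351023-119351082 (Chac1, plus strand) and chr2:152344028-152344057 (Trib3, minus strand).
Asns: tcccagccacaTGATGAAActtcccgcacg
Chac1: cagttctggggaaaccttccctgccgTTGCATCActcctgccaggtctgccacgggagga
Trib3: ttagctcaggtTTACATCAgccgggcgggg
The Asns match reads along the gene, and the matches of Chac1 and Trib3 lie on the opposite strand. The Chac1 match runs from -193 to -186 counted back from the RefSeq start, and from -180 to -173 counted from the GENCODE M21 start. For the other genes the annotations place the match on different sides of the start. The Asns match runs from -23 to -16 by RefSeq but from base 23 to base 30 of the gene by GENCODE. The Trib3 match runs from base 15 to base 22 by RefSeq but from -14 to -7 by GENCODE. Gene coordinates given below are those of GENCODE. A window without these letters says nothing about binding elsewhere in the gene.

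The libraries held 16171595 to 17385006 counts at D14 and 14878101 to 16001097 at D0. D0 replicate 3 stood apart from the other libraries on the first principal component of the log2 levels (42.62% of the variance), with a score of 82.85 where the others had -41.48 to 15.71, and the members' fold changes that moved by over 1.5 times without it are given both ways. Lung markers were present, the sum of 6 alveolar epithelial genes reaching 20220 to 27394 CPM (counts scaled to a common library total with TMM factors) at D14 and 20298 to 46573 CPM at D0. Of the osteoblast lineage markers, Bglap had 0 to 2 counts, Sp7 0 to 2 and Bglap2 0 to 8 in any library. The 2 markers of that list that passed the filter on low counts, Alpl and Runx2, summed to 34.9 to 42.8 CPM at D14. At D0 they summed to 25.6 to 38.2 CPM. The sum of 6 B cell markers was 96.2 to 133 CPM at D14 and 148 to 248 CPM at D0. D0 replicate 3 had the highest sums of 6 red cell markers (52468 CPM, others 9241 to 28909) and 6 striated muscle markers (767 CPM, others 180 to 436). The sum of 6 adipocyte markers was 898 CPM in D0 replicate 3, 1039 CPM in D14 replicate 3 and 53.9 to 311 CPM in the others. In whole tissue, fewer cells of a type and less RNA per cell cannot be told apart.

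D14 was set against D0 to ask how the stress response of the lung stood in the pre-metastatic period that the series title names. Atf4, Ddit4 and Sesn2 had higher means at D14, Atf5, Ddit3, Trib3, Chac1 and Phgdh had lower ones, and Asns and Psat1 lay within 0.07 log2 units of no difference. None of these differences passed. With edgeR's quasi-likelihood test 0 of the 10 members reached an adjusted p of 0.05, and DESeq2 and limma-voom also called 0. Over all genes edgeR called 0.0339%, 6 genes, limma-voom 0.0339% and DESeq2 1.68%. At an unadjusted p under 0.05 stood 2 members, Atf4 and Ddit4, where 12.6% of all tested genes stood. All 3 D14 libraries lay above all 3 D0 libraries for these same 2 members (10.9% of all genes), and below for 1, Atf5 (10.7% of all genes). Without overlap in either direction were thus 3 of 10 members and 21.6% of all genes. The median log2 fold change was -0.13 over the members and -0.03 over all tested genes.

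**Figure D1:**
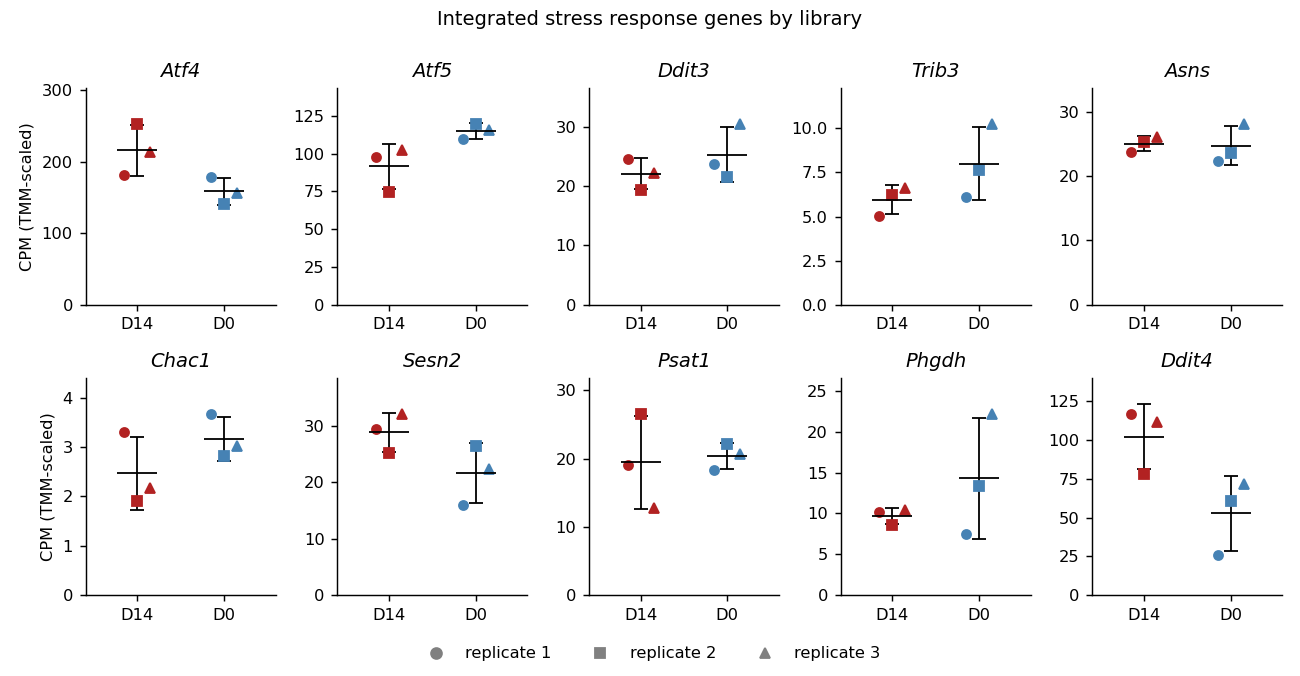
TMM-scaled CPM of the 10 members, 1 panel per gene with its own axis from 0; points are libraries (shape gives the replicate number), the horizontal line is the mean and the bar 1 SD of 3 libraries. Groups stand apart only for Atf4, Ddit4 (higher at D14) and Atf5 (lower at D14).

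Expressed per kilobase of the longest annotated transcript, Atf4 had the highest level of the members, with a mean of 92.8 CPM per kilobase over 6 libraries and a range of 69.6 to 125, apart from the next gene. Atf5 (41.2 to 65.9 CPM per kilobase), Ddit4 (14.6 to 66.4) and Ddit3 (20.0 to 31.5) followed, each overlapping with its neighbour in this order. Asns, at 11.1 to 13.9 CPM per kilobase, stood apart from its neighbours in this order, Ddit3 and Psat1, but overlapped with Phgdh. Psat1 (4.90 to 10.1), Sesn2 (4.58 to 9.20), Phgdh (3.93 to 11.7) and Trib3 (2.49 to 5.06) formed an overlapping series. Chac1 was lowest at 1.17 to 2.24 CPM per kilobase, from 30 to 63 counts per library, so its counting error is the largest among the members.

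Atf4, the factor at the centre of the response (chromosome 15, 80255184 to 80257541, GRCm38), had 181, 253 and 214 CPM in the D14 libraries, against 179, 141 and 156 CPM in the D0 libraries. Every D14 library was above every D0 library, but D14 replicate 1 and D0 replicate 1 lay 2.41 CPM apart. The means were 216 ± 36.1 CPM at D14 and 158.5 ± 19.1 CPM at D0 (SD, n = 3 each). On the log2 scale the fold change was 0.45 (SE 0.18, 95% interval 0.03 to 0.86), which did not pass over all genes (adjusted p = 0.381, edgeR quasi-likelihood test). Leaving out D14 replicate 2, the library with the highest Atf4, gave 0.32. With no scaling factors the groups overlapped.

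Atf5, a related factor that ATF4 and CHOP induce and that acts in the mitochondrial stress response, had the opposite sign (chromosome 7, 44812256 to 44816658). It had 97.6, 74.9 and 103 CPM in the D14 libraries, against 109, 120 and 116 CPM in the D0 libraries. The D0 libraries lay close together and all above D14, the lowest value being that of D14 replicate 2, the library with the most Atf4. The log2 fold change was -0.33 (SE 0.16, 95% interval -0.70 to 0.05; adjusted p = 0.430, edgeR quasi-likelihood test), and -0.20 without D14 replicate 2. Atf5 overlaps Nup62 by 571 bases and Il4i1 by 272 bases on the other strand. Strand handling of the counting is not given in the sources used here, so the Atf5 value is uncertain to an unknown extent. Those genes had 81 to 392 and 10 to 45 counts per library, which do not measure the reads shared with Atf5.

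Ddit3 encodes CHOP, the bZIP factor that turns prolonged ER stress towards cell death (chromosome 10, 127290774 to 127296288). Its levels were 24.6, 19.4 and 22.2 CPM at D14 and 23.7, 21.6 and 30.5 CPM at D0. The groups overlapped widely and D0 replicate 3 was highest. The log2 fold change of -0.19 (SE 0.19, 95% interval -0.63 to 0.24; adjusted p = 0.651) was -0.04 without D0 replicate 3 and -0.11 without D14 replicate 2. A second row named Ddit3, for a short overlapping coding sequence on the same strand, held 1 count in every library. Ddit3 also overlaps the methionyl-tRNA synthetase gene (Mars) by 68 bases on the other strand, which had 565 to 725 counts.

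Trib3, a pseudokinase that CHOP and ATF4 induce and that restrains both, had 5.04, 6.25 and 6.60 CPM in the D14 libraries, against 6.10, 7.67 and 10.3 CPM in the D0 libraries (chromosome 2, 152337422 to 152344032). D0 replicate 1 fell among the D14 libraries, and D0 replicate 3 was the highest of all. Its log2 fold change was -0.42 (SE 0.26, 95% interval -1.02 to 0.17; adjusted p = 0.488), and -0.21 without D0 replicate 3. Chac1, which degrades glutathione and whose promoter match is shown above, had 3.30, 1.91 and 2.18 CPM at D14, against 3.66, 2.81 and 3.02 CPM at D0 (chromosome 2, 119351229 to 119354381). Only D14 replicate 1 overlapped with D0, and the log2 fold change was -0.36 (SE 0.31, 95% interval -1.08 to 0.37; adjusted p = 0.614). It was -0.62 without D14 replicate 1, -0.20 without D14 replicate 2 and -0.23 without D0 replicate 1. Both genes are low, with 87 to 146 counts of Trib3 per library.

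The amino acid enzymes did not share one direction. Asns, asparagine synthetase, the textbook target of amino acid shortage (chromosome 6, 7675169 to 7693254), had 23.7, 25.3 and 26.0 CPM in the D14 libraries, against 22.3, 23.6 and 28.1 CPM in the D0 libraries. Its highest library was 1.26 times its lowest, the smallest such ratio among the members, and the D14 range lay inside that of D0. The log2 fold change was 0.02 (SE 0.15; adjusted p = 0.960), and its 95% interval of -0.33 to 0.37 holds shifts in either direction. The sign turned to -0.044 with no scaling factors, and the value was 0.12 without D0 replicate 3.

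Phgdh and Psat1 catalyse the opening steps of serine synthesis from a glycolytic intermediate. Phgdh (chromosome 3, 98313170 to 98339990) had 10.2, 8.55 and 10.4 CPM at D14, against 7.44, 13.4 and 22.1 CPM at D0. The spread was within D0, whose libraries held both the lowest and the highest value of the 6, while the D14 libraries lay close together. The log2 fold change of -0.56 (SE 0.37, 95% interval -1.41 to 0.30; adjusted p = 0.515) became -0.86 when D0 replicate 1 was left out and -0.10 when D0 replicate 3 was. Phgdh-ps1, a processed pseudogene, had 1 to 6 counts, against 128 to 315 for Phgdh. Psat1 (chromosome 19, 15904678 to 15947337) had 19.0, 26.5 and 12.8 CPM at D14, against 18.3, 22.1 and 20.7 CPM at D0. Here the spread was within D14, which held both extremes, and the log2 fold change was -0.07 (SE 0.26, 95% interval -0.68 to 0.54; adjusted p = 0.917). The sign turned to 0.16 without D14 replicate 3, and the value was -0.35 without D14 replicate 2. A processed pseudogene, Gm3329, overlaps Psat1 by 556 bases on the other strand.

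Sesn2 and Ddit4 restrain the growth kinase complex mTORC1, Sesn2 as a leucine sensor and Ddit4 (REDD1) through the TSC complex. Sesn2 (chromosome 4, 132492032 to 132510501) had 29.3, 25.2 and 32.0 CPM in the D14 libraries, against 15.9, 26.4 and 22.4 CPM in the D0 libraries. D0 replicate 2 exceeded D14 replicate 2, and D0 replicate 1 was lowest. The log2 fold change was 0.42 (SE 0.21, 95% interval -0.08 to 0.92; adjusted p = 0.439), and 0.25 without D0 replicate 1.

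Ddit4 (chromosome 10, 59949669 to 59951834) differed most among the members. It had 116, 78.1 and 112 CPM in the D14 libraries, against 25.6, 60.7 and 71.6 CPM in the D0 libraries. The groups did not overlap, although D14 replicate 2 lay only 6.49 CPM above D0 replicate 3, and D0 replicate 1 was far below the rest. The means were 102 ± 20.9 CPM at D14 and 52.7 ± 24.0 CPM at D0 (SD, n = 3 each). On the log2 scale the fold change was 0.96 (SE 0.36, 95% interval 0.11 to 1.80; adjusted p = 0.373, edgeR quasi-likelihood test). Without D0 replicate 1 the log2 fold change was 0.63, a value 1.51 times smaller (adjusted p = 0.218).

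**Figure D2:**
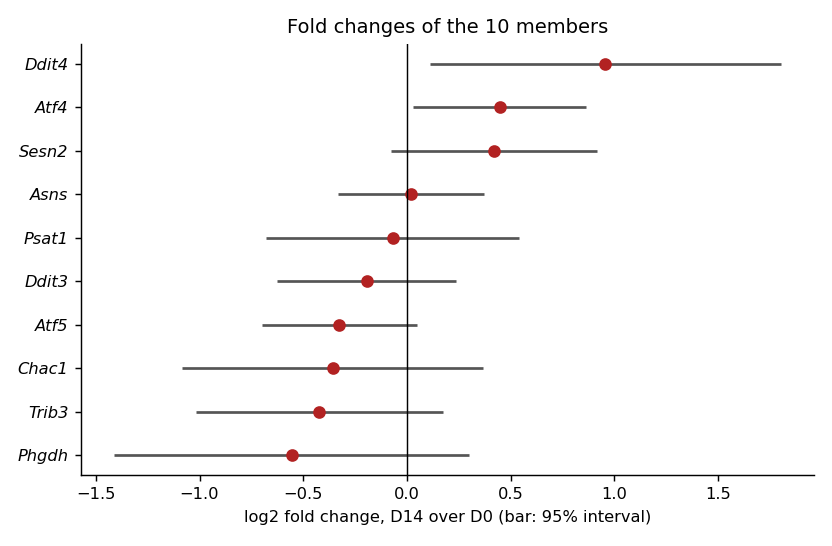
Log2 fold change of each member, D14 over D0, from the edgeR fit (points), with the 95% interval of each (bars); genes are ordered by fold change. The intervals of Ddit4 and Atf4 lie above 0 before adjustment over all genes, and the other 8 include 0.

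Ddit4 is also induced by glucocorticoids and by hypoxia. Genes of these responses, listed with earlier results of these data known, are given beside it. All 8 glucocorticoid-induced genes had positive log2 fold changes (46.9% of all genes), median 1.04, and 7 lay higher at D14 without overlap (10.9%). Their summed level was 3313 to 3606 CPM at D14, against 730, 2249 and 2034 CPM in D0 replicates 1, 2 and 3. The library lowest in Ddit4, D0 replicate 1, was thus also lowest in this sum. That was not particular to these genes. D0 replicate 1 was the lowest library in other sums too, though not in all. Among them were the hypoxia-induced genes (364 CPM), red cell markers (9241 CPM) and striated muscle markers (180 CPM). Klf9, a glucocorticoid-induced transcription factor, had 282, 315 and 411 CPM at D14 and 121, 210 and 160 CPM at D0, and its log2 fold change was 1.04 (SE 0.24; adjusted p = 0.333 by edgeR and 0.0124 by DESeq2). Fkbp5, a chaperone partner of the glucocorticoid receptor, stood at 0.87 (SE 0.24; adjusted p = 0.347). Errfi1 and Dusp1, feedback inhibitors of growth factor signalling, had 1.62 (SE 0.49; adjusted p = 0.362 by edgeR and 0.0332 by DESeq2) and 0.67 (SE 0.41; adjusted p = 0.492). Dusp1 stood at 0.30 without D0 replicate 1 and 1.01 without D0 replicate 2. The 10 hypoxia-induced genes had a median log2 fold change of -0.02, 5 positive and 5 negative. Their sums were 504 to 505 CPM at D14, against 364, 446 and 593 CPM in D0 replicates 1, 2 and 3. Ankrd37 stood at -1.48 (SE 0.50; adjusted p = 0.364), Ndrg1 at 0.35 (SE 0.20; adjusted p = 0.474), Ldha at 0.13 (SE 0.20) and Bnip3 at 0.14 (SE 0.35). Without D0 replicate 3, Ankrd37 stood at -0.72, Ndrg1 at 0.55, Ldha at 0.33 and Bnip3 at 0.53, and without D0 replicate 1 Ndrg1 stood at 0.18. Whether these responses take part in the Ddit4 difference was not tested.

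**Figure D3:**
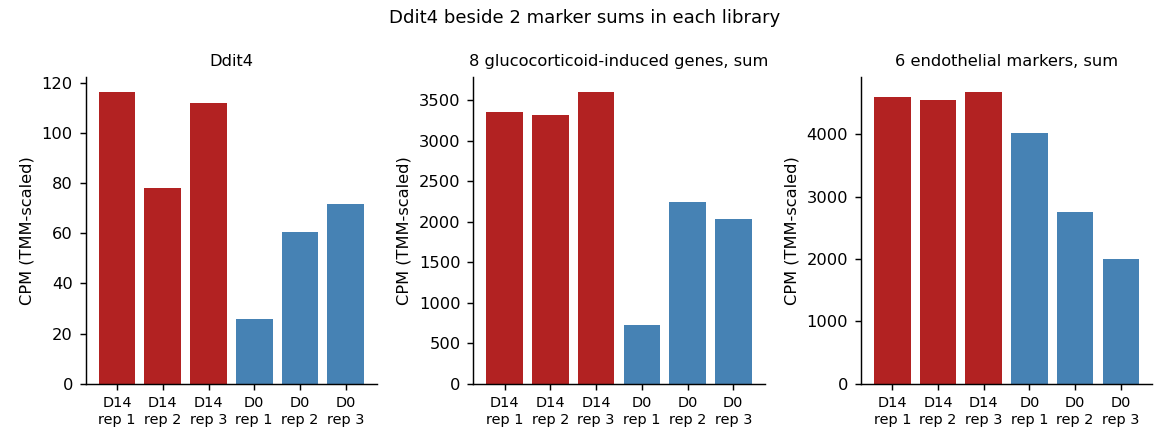
Bars give TMM-scaled CPM in each library for Ddit4 (left), the sum of 8 glucocorticoid-induced genes (middle) and the sum of 6 endothelial markers (right). D0 replicate 1 is lowest in the first and second panels, at 25.6 and 730 CPM, but is the highest of the D0 libraries in the third, at 4017 CPM. It was also lowest in sums not drawn here, such as that of the hypoxia-induced genes (364 CPM).

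The members did not move together across the libraries. D0 replicate 3 had the highest value of the 6 libraries for Ddit3, Trib3, Asns and Phgdh. D14 replicate 2 had the highest value for Atf4 and Psat1 and the lowest for Atf5, Ddit3 and Chac1. D0 replicate 1 had the lowest value for Asns, Sesn2, Phgdh and Ddit4. Each gene's deviation from its own mean log2 CPM ran from -1.44 (Ddit4 in D0 replicate 1) to 0.97 (Phgdh in D0 replicate 3).

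**Figure D4:**
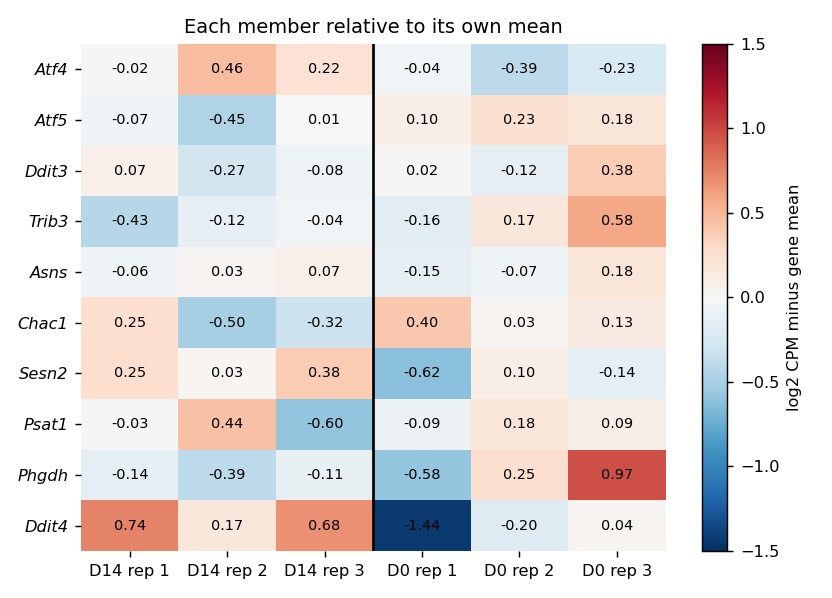
Log2 CPM of each member (rows) in each library (columns) minus the gene's mean over the 6 libraries; red is above and blue below the mean, and the black line parts D14 (left) from D0 (right). Rows do not share a pattern, the extremes being Ddit4 at -1.44 in D0 replicate 1 and Phgdh at 0.97 in D0 replicate 3.

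Likeness to Atf4 was measured as the mean absolute difference of log2 CPM over the 6 libraries, each gene centred on its own mean, among 11116 genes with a mean of at least 10 CPM. The nearest were Emcn, an endothelial sialomucin, at 0.0235, Dusp10, a MAP kinase phosphatase, at 0.0414 and Ipo11, a nuclear import receptor, at 0.0584. Emcn had 58.8, 81.0 and 69.7 CPM at D14 and 56.6, 47.3 and 49.7 CPM at D0. The nearest member was Asns at 0.244, farther than a gene with no variation, which would stand at 0.228. The sum of 6 endothelial markers was 4603, 4553 and 4685 CPM in D14 replicates 1, 2 and 3. In D0 replicates 1, 2 and 3 it was 4017, 2749 and 2001 CPM. Within the groups this sum and Atf4 had different orders. D14 replicate 2, highest in Atf4, had the lowest D14 sum, and D0 replicate 3, lowest in the sum, was not lowest in Atf4. All 6 markers had positive log2 fold changes, none was at 0, and 4 lay higher at D14 without overlap (10.9% of all genes). All these values share the same 6 libraries, and the part of endothelial content in the Atf4 difference was not tested.

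Around the members, 8 lists of genes of the same pathways held 109 tested genes, of which edgeR called 0, limma-voom 0 and DESeq2 3 (Atf3, Tnfrsf10b and Atf6, all higher at D14), where DESeq2 called 1.68% of all genes. Their median log2 fold change was 0.10, against -0.03 over all genes, 77 were positive (46.9% of all genes were), and at an unadjusted p under 0.05 stood 9 (12.6% of all genes). Without overlap were 20 higher and 3 lower at D14, against 10.9% and 10.7% of all genes.

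Upstream, the 14 genes for eIF2 kinases, eIF2 and its exchange factor and phosphatase subunits had a median of -0.02. Without overlap were 3 higher and 1 lower (10.9% and 10.7% of all genes). Ppp1r15b, the constitutive subunit that directs a phosphatase to eIF2 alpha, had 156, 171 and 165 CPM at D14 and 128, 134 and 110 CPM at D0, and its log2 fold change was 0.41 (SE 0.14; adjusted p = 0.364). Eif2ak2 (PKR), the kinase for double-stranded RNA, stood at 0.28 (SE 0.16; adjusted p = 0.475), or 0.16 without D0 replicate 3, and Gcn1, the activator of the amino acid sensor kinase GCN2, at -0.01 (SE 0.21), with a sign that turned under RLE factors. Among 12 bZIP partners and relatives the median was 0.12. Atf3, an ATF4 target and stress-induced repressor, had 56.7, 117 and 45.1 CPM at D14, against 6.22, 22.4 and 27.2 CPM at D0. All D14 libraries were above all D0 libraries, and the log2 fold change was 1.97 (SE 0.57; adjusted p = 0.352 by edgeR and 0.0163 by DESeq2). Atf3 is also an immediate early gene. The 7 other such genes listed had a median of 1.04, and 6 lay higher at D14 without overlap (10.9% of all genes). The C/EBP factors Cebpa, Cebpd and Cebpb stood at -0.47 (SE 0.22; adjusted p = 0.421), 0.50 (SE 0.57) and 0.05 (SE 0.39), and Cebpb turned to -0.28 without D0 replicate 1. Cebpd stood at 0.05 without D0 replicate 1 and 1.11 without D0 replicate 3, and Cebpa at -0.31 without D14 replicate 2.

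Downstream, 12 enzymes of serine, folate-linked carbon, proline and transsulfuration metabolism had a median of 0.10, and 0 were without overlap (21.6% of all genes). Mthfd2 and Aldh1l2, mitochondrial folate enzymes, stood at 0.71 (SE 0.33; adjusted p = 0.418) and 1.24 (SE 0.67; adjusted p = 0.458), and the abundant Shmt2 and Got1 at 0.11 (SE 0.21) and 0.24 (SE 0.23). Without D14 replicate 2, Mthfd2 stood at 0.45 and Aldh1l2 at 0.55, and Got1 stood at 0.08 without D0 replicate 1 and 0.51 without D0 replicate 3. Of 11 tested amino acid transporters 8 were positive (46.9% of all genes), with a median of 0.31, and 3 lay above D0 without overlap (10.9%). These were Slc7a1, the cationic amino acid carrier, at 0.46 (SE 0.17; adjusted p = 0.367), Slc38a2, a neutral amino acid carrier, at 0.35 (SE 0.16; adjusted p = 0.415), and Slc3a2, the shared heavy chain, at 0.39 (SE 0.20; adjusted p = 0.436). Slc7a3, a further carrier, did not pass the filter on low counts. Slc3a2 had 275, 230 and 240 CPM at D14 and 144, 200 and 225 CPM at D0, and its log2 fold change was 0.23 without D0 replicate 1. Of 20 cytosolic aminoacyl-tRNA synthetases, which charge tRNAs, 17 were positive (46.9% of all genes) but small in size, with a median of 0.10. Eprs and Wars stood at 0.31 (SE 0.14; adjusted p = 0.418) and 0.41 (SE 0.20; adjusted p = 0.426), Aars and Sars at -0.02 (SE 0.15) and 0.03 (SE 0.16). Wars stood at 0.63 without D0 replicate 2.

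Other ATF4 or CHOP targets had a median of 0.00 over 11 tested genes. Tnfrsf10b, the TRAIL death receptor that CHOP induces, had 37.7, 50.3 and 33.3 CPM at D14, against 13.3, 13.9 and 12.2 CPM at D0. It came closest to the threshold of all genes in these lists (log2 fold change 1.62, SE 0.19; adjusted p = 0.0786 by edgeR, 0.0289 with no low count filter and 2.17e-09 by DESeq2). Ero1l, an ER oxidase, stood at 0.41 (SE 0.16; adjusted p = 0.380), Vegfa at -0.28 (SE 0.18), or -0.18 without D0 replicate 2, and Sqstm1, an autophagy receptor, at 0.01 (SE 0.18). In the ER arm, 16 of 18 chaperones and sensors were positive (46.9% of all genes), with a median of 0.22 and 6 above D0 without overlap (10.9%). Atf6, the ER sensor cleaved in the Golgi, had 102, 103 and 113 CPM at D14, against 70.9, 75.5 and 56.4 CPM at D0, and its log2 fold change was 0.65 (SE 0.16; adjusted p = 0.341 by edgeR and 0.0278 by DESeq2). Hyou1, an ER chaperone, stood at 0.52 (SE 0.15; adjusted p = 0.354), Calr at 0.21 (SE 0.18) and Hsp90b1 at 0.39 (SE 0.21). Without D0 replicate 3, Calr stood at 0.36 and Hsp90b1 at 0.60, and without D0 replicate 2 Calr stood at 0.12. Of the other sestrins and mTORC1 regulators, median 0.03, Flcn lay below D0 without overlap at -0.41 (SE 0.17; adjusted p = 0.393), Deptor stood at 0.45 (SE 0.22; adjusted p = 0.426), or 0.25 without D14 replicate 3, and Rheb and Tsc2 at 0.02 (SE 0.17) and 0.03 (SE 0.21).

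**Figure D5:**
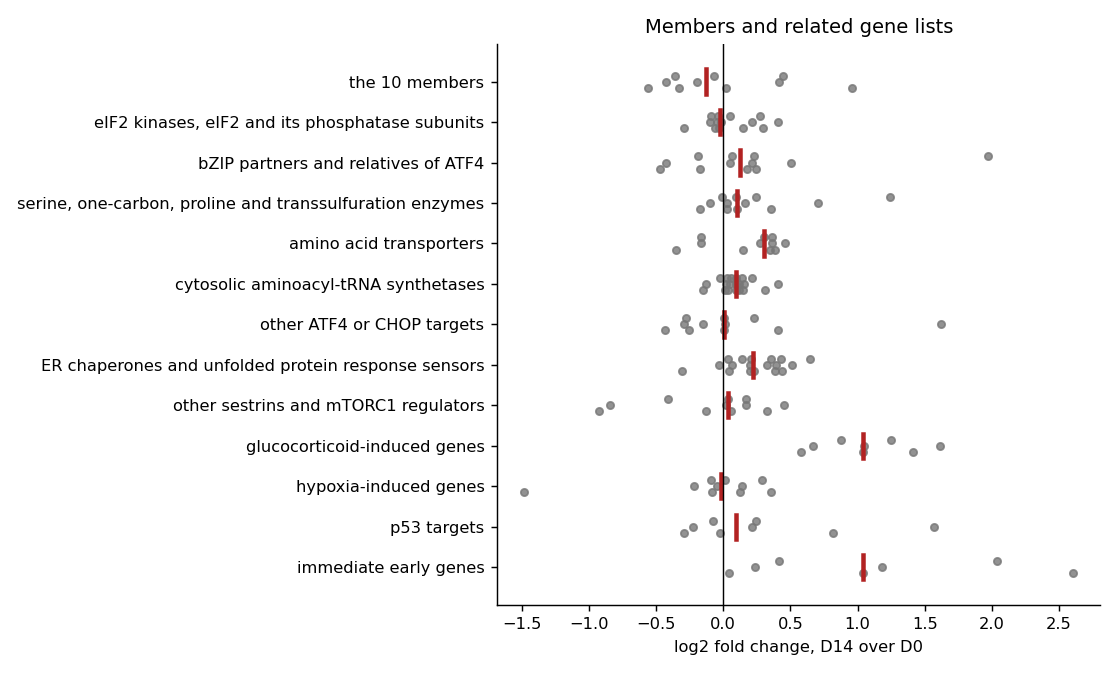
Log2 fold change, D14 over D0, of every tested gene in each list (grey points, offset for legibility), with the list's median as a red bar. Medians of the members and the pathway lists lie between -0.13 and 0.31, and those of glucocorticoid-induced and immediate early genes at 1.04.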

How the data were processed

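The 6 libraries hold lung RNA isolated with TRIzol, per the labels' protocols, although that text speaks of macrophages (BMDMs) where the tissue label has lungs. The submitters' processing notes name HISAT2 2.1.0, StringTie 1.3.4b, CASAVA 1.8, edgeR and the build GRCm38 without their roles, and neither the counting tool nor its strand setting is given in the sources used here. The authors deposited estimated counts by gene symbol, without depth scaling, which were rounded to whole numbers. Of 29757 lines, 2 empty and 2 displaced ones were left out, and 50 repeated a symbol (kept as rows of their own, the row with most counts carrying the symbol). In all 6 libraries edgeR 4.0.16 (R 4.3.3; TMM factors, default filter, robust quasi-likelihood F test, two-sided, no covariate) tested D14 against D0, with Benjamini-Hochberg adjustment over all genes at 0.05. A standard error is the log2 fold change divided by the square root of F. For log2 CPM a prior count of 2 was added. A count of 3 corresponds to 0.174 to 0.211 CPM, covering counting error only. With 3 libraries each, a permutation test could not pass 0.05, so none was made. The fit was checked on simulated counts.

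The members, lists and the rule for named genes (the 2 smallest p and 2 most abundant genes per list with no call) were chosen with earlier results of these data known. Annotation was GENCODE M21 for GRCm38, and promoters RefSeq, GRCm38.p6. Alternatives were RLE or no scaling factors, 2 other filters, DESeq2 1.42.0, limma-voom (limma 3.58.1), a fit with no robust step, a block for the replicate number, the omission of each library, and, added after seeing the data, repeated rows summed.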

Additional observations from a re-analysis of the deposited data

How the results depend on the processing

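No member was called under any of the 15 alternatives, and the members other than Asns and Psat1 kept their sign in all of them. The median of the members ran from -0.19 with no scaling factors to -0.05 without D0 replicate 3, the lowest with 1 library left out being -0.18 (without D0 replicate 1). Over all genes the median in these 3 settings was -0.10, -0.02 and -0.01, so with no scaling factors it fell as well. Members without overlap between groups numbered 5 without D0 replicate 1, with Trib3 and Phgdh added on the lower side, where 39.9% of all genes did not overlap. With any 1 library left out they numbered between 3 and 5 of 10, where 27.5% to 39.9% of all genes did not overlap. The count over all genes, 6, was 26 with no low count filter, 274 with DESeq2, 0 with the replicate block, and 0 to 22 with 1 library left out. Same-numbered libraries had correlations of their deviations from the group means of 0.119, -0.0548 and -0.0972, and best matches by number only for replicate 1. These values, from so few libraries, cannot decide whether the numbers pair the libraries. With the replicate block Ddit4 stood at 1.05 (adjusted p = 0.584). Of 825 values of single genes, 780 kept sign and side of the threshold, 10 passed it and 35 changed sign. With no scaling factors Asns stood at -0.044, Sars at -0.034, Sqstm1 at -0.046, Rheb at -0.037 and Tsc2 at -0.049. Gcn1 stood at 0.00042 with RLE factors, 0.00034 with DESeq2, 0.021 with limma-voom and 0.019 with the replicate block. With 1 library left out, log2 fold changes ran from -0.042 to 0.12 for Asns, -0.35 to 0.16 for Psat1, -0.20 to 0.18 for Gcn1, -0.28 to 0.57 for Cebpb, -0.11 to 0.24 for Shmt2, -0.075 to 0.082 for Aars, -0.065 to 0.19 for Sars, -0.076 to 0.18 for Sqstm1, -0.091 to 0.12 for Rheb, -0.16 to 0.16 for Tsc2, -0.016 to 0.33 for Ldha, -0.14 to 0.53 for Bnip3 and -0.095 to 0.047 for Ccng1. The cause of these changes was not tested. Depth limits Chac1 most, at 30 to 63 counts per library.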

Other observations

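Sesn2 is also a target of p53, and 8 other p53 targets had a median log2 fold change of 0.09, 4 positive and 4 negative. Trp53inp1, a stress-induced p53 cofactor, had 130, 140 and 207 CPM at D14, against 90.6, 91.2 and 89.0 CPM at D0, and its log2 fold change was 0.81 (SE 0.20; adjusted p = 0.347 by edgeR and 0.0296 by DESeq2). Cdkn1a, the cell cycle inhibitor p21, had 68.8, 267 and 324 CPM at D14, against 56.0, 59.2 and 107 CPM at D0, so that the groups overlapped (1.57, SE 0.54; adjusted p = 0.364), and the abundant Ccng1 stood at -0.02 (SE 0.15). The immediate early genes Fosb, Nr4a1, Egr1 and Jun stood at 2.60 (SE 0.56), 2.04 (SE 0.49), 1.04 (SE 0.22) and 0.24 (SE 0.17), with adjusted p of 0.320, 0.340, 0.320 and 0.539 by edgeR. DESeq2 called Fosb (adjusted p = 0.000116), Nr4a1 (0.0017) and Egr1 (0.00629), and Fos of the same list. Without D14 replicate 2 Fosb stood at 1.68, and without D0 replicate 3 Jun stood at 0.12.

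Sesn3, the relative of Sesn2 that FoxO factors induce, had 6.26, 11.8 and 68.6 CPM at D14, against 62.3, 58.5 and 43.7 CPM at D0, chosen here after its values were seen. The D14 libraries held both extremes (log2 fold change -0.93, SE 0.80; adjusted p = 0.612). Aldh1l2, likewise, had 2.66, 4.66 and 0.58 CPM at D14 and 0.81, 1.41 and 1.12 CPM at D0. D14 replicate 2, highest in Aldh1l2, was also highest in Atf4 and Psat1.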
